A study of Arabidopsis thaliana with 18 samples.

Results

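The YABBY genes encode a plant-specific family of transcription factors, and Arabidopsis thaliana has 6 of them. They are known for marking the abaxial (lower) side of lateral organs, for promoting the outgrowth of the leaf blade, and for ending meristem activity at the organ flanks. FIL (FILAMENTOUS FLOWER, AT2G45190, listed as AFO in the gene table), YAB2 (AT1G08465), YAB3 (AT4G00180) and YAB5 (AT2G26580) act in leaves and other lateral organs. CRC (CRABS CLAW, AT1G69180) acts in carpels and nectaries, and INO (INNER NO OUTER, AT1G23420) in the outer integument of the ovule. H3K27me3, trimethylation of histone H3 lysine 27, is set by Polycomb complexes at genes kept silent, while H3K4me3, trimethylation of lysine 4, lies at the start of active genes. The 6 genes were taken by their locus identifiers out of 27444 nuclear protein-coding genes, and in each mark a gene was given the peak sharing the most bases with its body, 150 bp or more.

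The marks were mapped by ChIP-seq in shoot apices of chr4 plants, named for the gene CHR4 (also PKR1) of a chromatin remodeller of the CHD family, and in apices of wild-type (WT) plants. Plants had grown for 5 weeks under 8 h of light and 16 h of dark at 21 °C. The labels gave 3 biological replicates for each antibody (H3K27me3, H3K4me3 and histone H3) in each genotype, 18 samples in 6 groups, and name neither the chr4 allele nor the background strain. The tables analysed here held 1 value per peak for a pool named treat and 1 for a pool named control, each of 3 replicates. Neither pool is tied to a genotype by the headers (the table's name in the labels only puts WT before chr4), so every ratio below is treat over control, and no direction is one of mutant against wild type. The CHR4 gene gave no answer, with an H3K4me3 total signal of 24676 in the treat pool and 25726 in the control pool. With 1 value per pool there is no spread between replicates to judge a difference by, and none was tested here.

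Apex-enriched tissue holds the meristem together with the young leaf primordia around it. H3K4me3 peaks lay on 3 of 7 meristem and boundary genes (CLV1, STM and KNAT1), on 5 of 5 photosynthesis genes and on 0 of 4 flower genes. They also lay on 1 of 3 root genes, SCR, and on 58.4% of all protein-coding genes. H3K27me3 peaks lay on 6 of those meristem genes, including the stem cell genes WUS and CLV3, which had no H3K4me3 peak. They lay on 0 of the photosynthesis genes, on 4 of the flower genes and on 2 of the root genes, PLT1 and WOX5. The share over all protein-coding genes was 24.7%. These counts describe marks and not expression.

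All 6 YABBY genes were covered, wholly or nearly so, by long H3K27me3 domains. At each gene at least 96.1% of the body was covered by a single peak of 5390 to 9140 bp, with a median of 5575 bp. Of all protein-coding genes, 24.7% had an H3K27me3 peak, and the median length of their peaks was 2370 bp. Cover of this kind was common among them, since 52.0% of the genes with a peak had at least 90% of the body covered. The FIL peak was the longest of the 6 at 9140 bp (chromosome 2, 18627570 to 18636710 in TAIR10). The others were 5460 bp at YAB2 (chromosome 1, 2675720 to 2681180), 5420 bp at YAB3 (chromosome 4, 72380 to 77800) and 5390 bp at YAB5 (chromosome 2, 11302750 to 11308140). The flower genes had 5690 bp at CRC (chromosome 1, 26007420 to 26013110) and 6170 bp at INO (chromosome 1, 8314900 to 8321070). The 4 leaf genes and the 2 flower genes therefore did not separate by the presence of this mark.

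**Figure D1:**
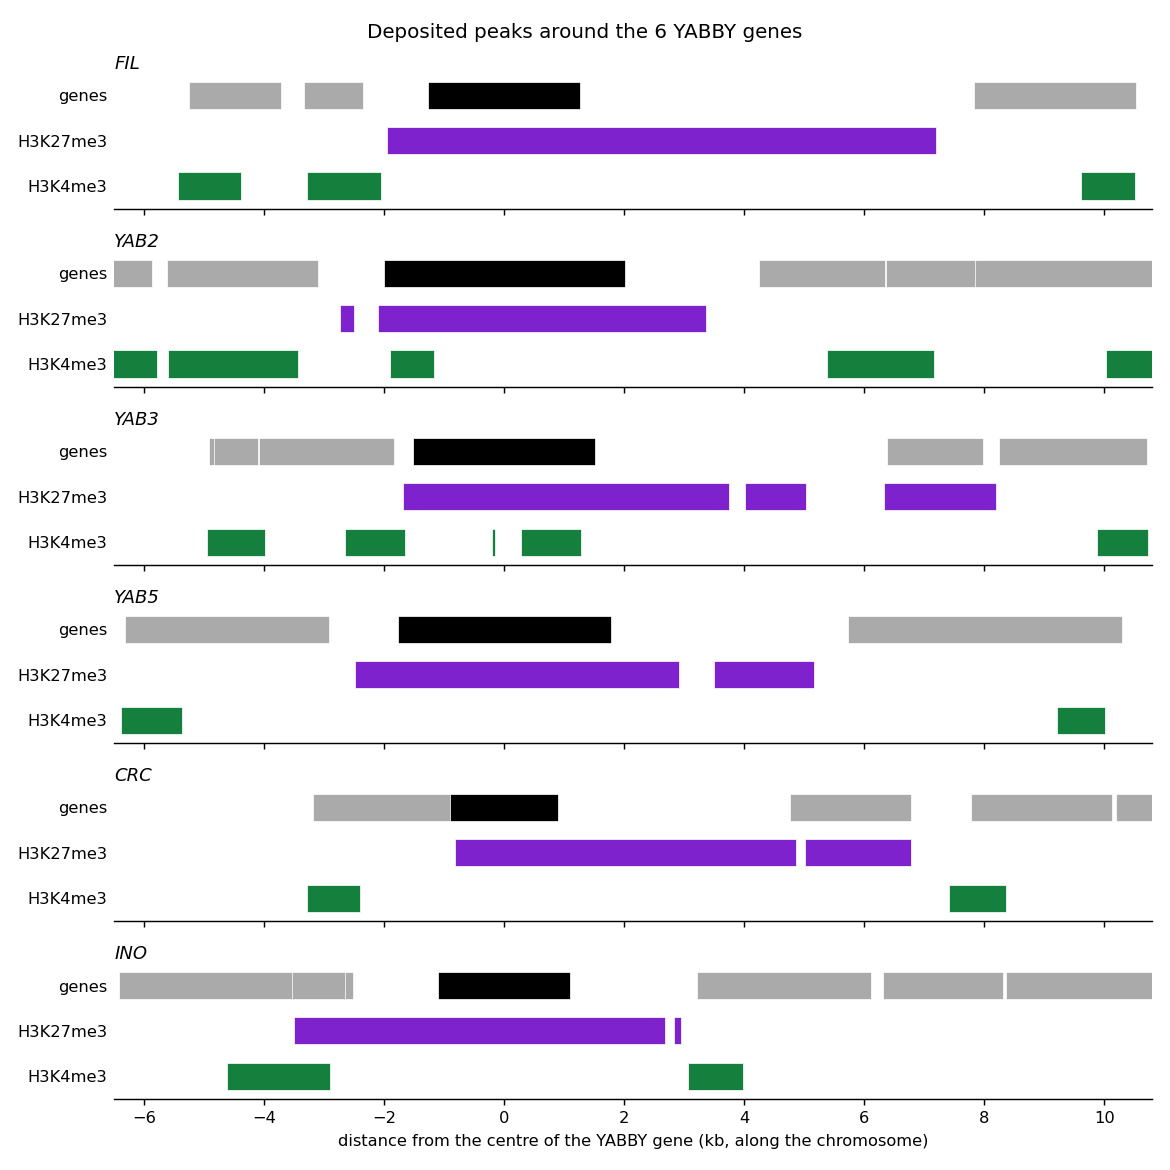
Map of the deposited H3K27me3 (purple) and H3K4me3 (green) peaks around each YABBY gene (black) and its protein-coding neighbours (grey), as distance in kb from the centre of the gene along the chromosome, without regard to strand. An H3K27me3 peak covers each YABBY gene, except for 70 bp at one end of CRC, and H3K4me3 peaks inside the gene occur at YAB2 and YAB3.

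The domains reached beyond the genes. All 6 ran past the gene end at the higher coordinate, by 1130 bp at YAB5 up to 5931 bp at FIL, and 5 ran past the other end, by 93 bp at YAB2 up to 2397 bp at INO. At CRC the domain began 70 bp inside the gene and ran on for 3969 bp beyond its far end. The strand of the genes was not used, and these flanks are therefore not called upstream or downstream.

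At 5 of the 6 loci the YABBY gene was the only protein-coding gene with at least 150 bp under the peak. Of all 649 nuclear H3K27me3 peaks from 5000 up to 10000 bp, 273 (42.1%) lay on a single gene by the same measure and 39 on none. The members' peaks lie on a gene by rule and, apart from that of FIL, are at most 6170 bp, so this share is only a rough background. The exception was INO, whose domain also held 837 bp of AT1G23410 and 976 bp of CAF2, which encodes a factor in chloroplast intron splicing. Genes beside the domains, ATG8E, AT2G45180 and GOS12 at FIL, HDA08 and SSL3 at YAB2, AT4G00170 at YAB3, AT1G69170 at CRC, AT1G23440 at INO and WEB1 at YAB5, each had an H3K4me3 peak and no H3K27me3 peak. On the other side of CRC, AT1G69190 had an H3K27me3 peak of its own that began 140 bp from the CRC domain.

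In total H3K27me3 signal and in height the 6 genes stood above most marked genes, and in signal per kb of peak below the median. Total signal and height are scores without a stated unit, and total signal grew with peak length (Spearman's rho of 0.87 over all 10228 H3K27me3 peaks, as a description), so total signal is given here to compare the pools at each gene, and the order of levels between genes is given by height and by total signal per kb of peak. FIL, which specifies abaxial cells together with YAB3, had a total signal of 56366 in the treat pool and 71319 in the control pool. That of YAB3 was 44334 in the treat pool and 51898 in the control pool. Both genes were lower in the treat pool, FIL by 1.27-fold and YAB3 by 1.17-fold, and neither difference reached the limit of 1.5-fold used here for a call.

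YAB2 and YAB5, which add to the activity of FIL and YAB3 in the leaf blade, had shorter domains than FIL. YAB2 had 41190 in the treat pool and 47868 in the control pool. YAB5 had 40029 in the treat pool and 50556 in the control pool. The difference was 1.16-fold at YAB2 and 1.26-fold at YAB5, again lower in the treat pool at both.

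CRC, needed for carpel fusion and nectary formation, had 48475 in the treat pool and 59441 in the control pool. INO, needed for growth of the outer integument, had 47969 in the treat pool and 59103 in the control pool. Both were 1.23-fold lower in the treat pool. In these bulk tissues, fewer cells with the mark and less of the mark per cell cannot be told apart.

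**Figure D2:**
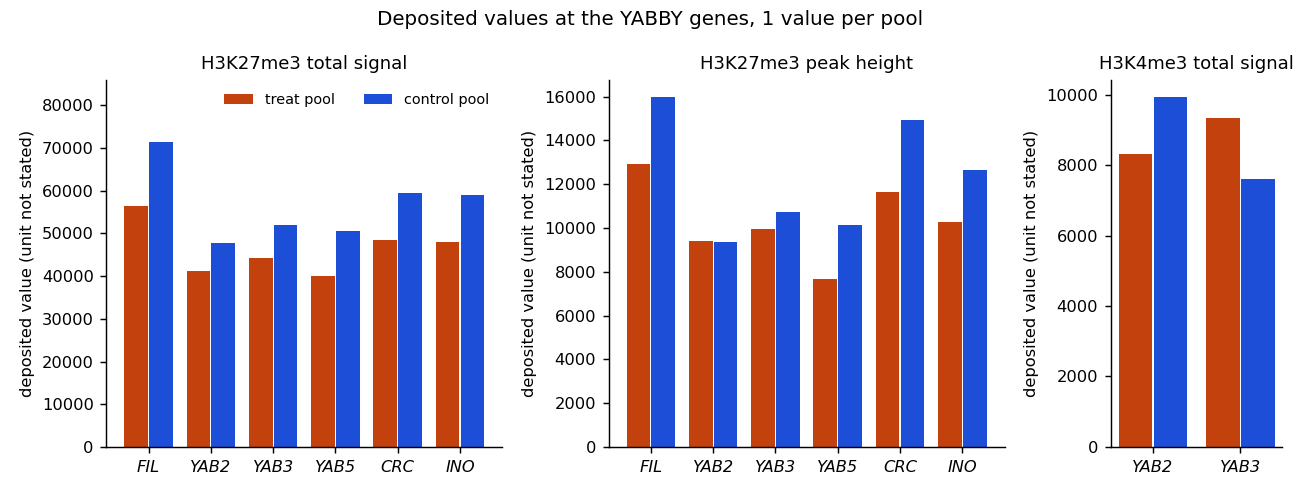
Bars give the deposited value (unit not stated) of the treat pool (orange) and the control pool (blue) at each YABBY gene, for H3K27me3 total signal, H3K27me3 peak height and H3K4me3 total signal. Each bar is 1 pool of 3 replicates and has no error. H3K27me3 total signal was lower in the treat pool at 6 of 6 genes, and the 2 genes with an H3K4me3 peak differ in direction.

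By height, FIL stood first with 12917 in the treat pool and 15973 in the control pool. CRC followed with 11645 in the treat pool and 14930 in the control pool, then INO with 10269 in the treat pool and 12657 in the control pool, and YAB3 with 9970 in the treat pool and 10747 in the control pool. YAB2 had 9392 in the treat pool and 9358 in the control pool, and YAB5 had 7682 in the treat pool and 10116 in the control pool. The last 2 thus changed places between the pools. Height was lower in the treat pool at 5 of 6 genes, against 74.9% of genes with a peak and 91.1% of nuclear peaks from 5000 up to 10000 bp, and the pools differed at YAB2 by a log2 ratio of 0.0053. Without replicates it cannot be said which neighbours in this order differ beyond their spread.

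The order by total signal per kb of peak was not the same. CRC was highest with 8519 per kb in the treat pool and 10447 per kb in the control pool, and FIL, with its long domain, lowest with 6167 per kb in the treat pool and 7803 per kb in the control pool. Over the 6772 genes with an H3K27me3 peak the median was 9666 per kb in the treat pool and 10824 per kb in the control pool. The mean of both pools placed the members between percentile 27.2 (FIL) and 43.9 (CRC). Peaks on these genes had a median length of 2370 bp, below all 6 domains, so this place below the median cannot be told apart from peak length. By height the percentiles among these genes ran from 74.4 at YAB5 to 94.3 at FIL, and by total signal, which rises with length, from 82.3 at YAB2 to 95.8 at FIL. Nuclear peaks from 5000 up to 10000 bp had a median of 5517 per kb in the treat pool and 6289 per kb in the control pool. All 6 members lay above it, from percentile 64.9 at FIL to 89.2 at CRC. The domains other than that of FIL were at most 6170 bp, near the short end of this class, which also holds 39 peaks on no gene. The class is thus only roughly matched to the members. By height YAB5 and YAB2 were near the middle of that length class, at percentiles 44.4 and 49.8, and FIL stood at 85.4. The class medians of height were 8608 in the treat pool and 10268 in the control pool, so that YAB5 was below both and YAB2 below that of the control pool.

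The log2 ratios of H3K27me3 total signal, treat over control, lay close together, from -0.34 at FIL and YAB5 to -0.22 at YAB2, with a median of -0.30. The same ratio had a median of -0.18 over all genes with an H3K27me3 peak, and 73.0% of those genes were lower in the treat pool at any size. Among nuclear peaks from 5000 up to 10000 bp, the length class of the 6 domains, the median was -0.19, the quartiles were -0.32 and -0.079, and 87.2% were lower in the treat pool. Within that class the members lay between percentile 19.7 (FIL) and 44.7 (YAB2). All 6 being lower is therefore read against a background in which most domains of this length were lower too. The median over all H3K27me3 peaks was -0.14. With that median subtracted, the ratios ran from -0.20 at FIL to -0.076 at YAB2, and with the median of nuclear peaks of at least 1000 bp subtracted, from -0.14 at FIL to -0.022 at YAB2.

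**Figure D3:**
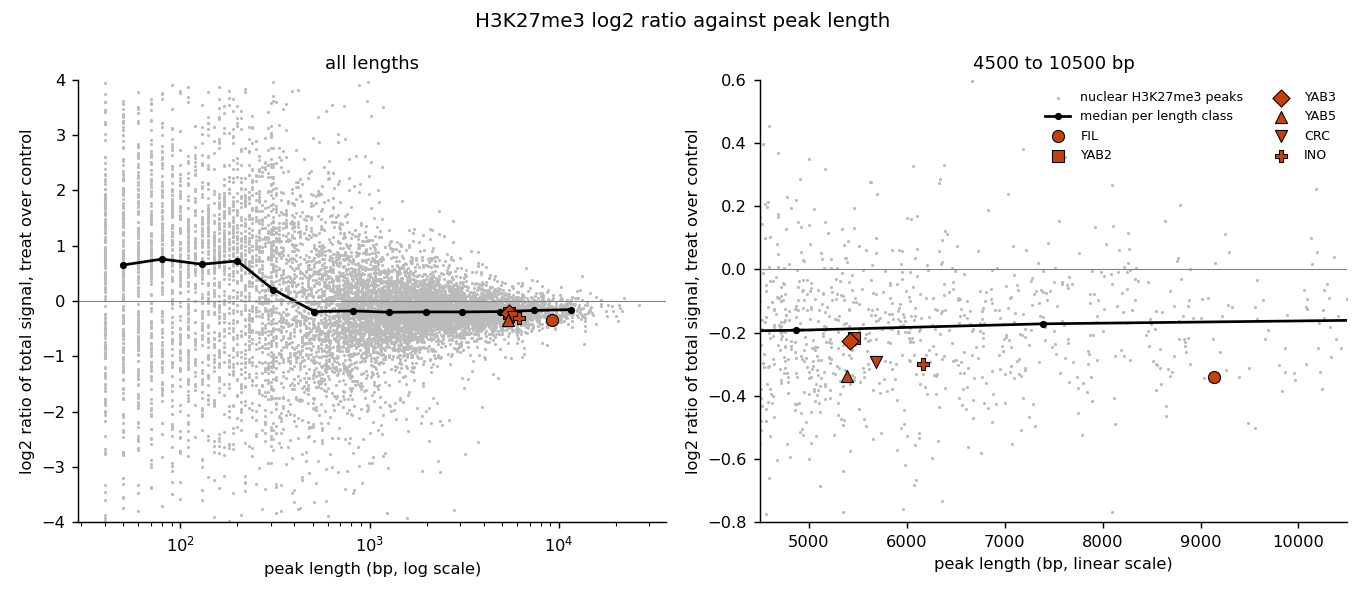
Log2 ratio of H3K27me3 total signal, treat over control, against peak length (left, log axis, all lengths; right, linear axis, long peaks), with nuclear peaks in grey, the median of each length class in black and the 6 YABBY domains in orange. Ratios beyond 4 in size, 328 of 10194 nuclear peaks, fall outside the left panel. The YABBY domains lie below the line of class medians and within the cloud of peaks of like length.

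A peak was called when the column named FDR in the authors' deposited table was under 0.05 and one pool's total signal was at least 1.5-fold the other's. By this rule 0 of 6 YABBY genes were called in H3K27me3, where 4.12% of genes with a peak (1.17% higher and 2.95% lower in the treat pool) and 0.770% of nuclear peaks from 5000 up to 10000 bp were. In the authors' deposited table the FDR for total signal was 0.206 at FIL, 0.277 at YAB5, 0.289 at INO, 0.297 at CRC, 0.428 at YAB3 and 0.464 at YAB2. For height the FDR in the authors' deposited table ran from 0.183 at CRC to 0.987 at YAB2. How this FDR was computed is not given in the sources used here, and an FDR above the limit does not show that the pools were alike.

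The deposited tables also give an FDR for a local loss or gain somewhere inside a peak. In the authors' deposited table the local loss FDR was under 0.05 at 2 of 6 members, 0.0368 at FIL and 0.0486 at YAB2, and it was 0.0565 at CRC, 0.0702 at INO, 0.0817 at YAB3 and 0.108 at YAB5. A local loss under 0.05 was found at 17.2% of genes with an H3K27me3 peak and at 24.2% of nuclear peaks from 5000 up to 10000 bp in the authors' deposited table. The local gain FDR in the authors' deposited table ran from 0.132 at CRC to 0.822 at FIL. Peak width was 8900 bp in the treat pool and 9140 bp in the control pool at FIL, and 5370 bp in the treat pool and 5310 bp in the control pool at YAB3. It was smaller in the treat pool at 4 of 6 genes. The share over all H3K27me3 peaks was not computed, so this count is not read as a trait of the YABBY genes.

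H3K4me3 was present at 2 of 6 YABBY genes, YAB2 and YAB3, where 58.4% of all protein-coding genes had such a peak. Among genes with an H3K27me3 peak, as all 6 members are, the share that also had an H3K4me3 peak was 13.6%. FIL, YAB5, CRC and INO had none under the overlap rule. At both genes the H3K4me3 peak lay wholly inside the H3K27me3 domain, over 730 bp (18.2% of the gene body) at YAB2 and 1000 bp (33.0%) at YAB3. Of the 920 genes with both marks, the peaks overlapped at 656, and the H3K4me3 peak lay wholly inside the H3K27me3 peak at 318. Whether both marks sat on the same nucleosomes or in different cells of the apex was not measured.

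At YAB2 the H3K4me3 peak (chromosome 1, 2675920 to 2676650) had a total signal of 8319 in the treat pool and 9927 in the control pool, 1.19-fold lower in the treat pool. At YAB3 the peak (chromosome 4, 74340 to 75340) had 9349 in the treat pool and 7596 in the control pool, 1.23-fold higher in the treat pool. The genes thus had opposite signs, with log2 ratios of -0.25 at YAB2 and 0.30 at YAB3, against a median of -0.078 over genes with an H3K4me3 peak. This difference between the genes was not tested. Height went the same way, with 1238 in the treat pool and 1321 in the control pool at YAB2, and 1616 in the treat pool and 1260 in the control pool at YAB3.

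By the call rule 0 of the 2 were called in H3K4me3, against 3.53% of genes with a peak (1.18% higher and 2.35% lower in the treat pool). The FDR in the authors' deposited table was 0.356 at YAB2 and 0.303 at YAB3. The local gain FDR in the authors' deposited table was 0.00293 at YAB3 and 0.842 at YAB2, and 14.8% of genes with an H3K4me3 peak were under 0.05. The local loss FDR in the authors' deposited table was 0.0254 at YAB2 and 0.0285 at YAB3, against 31.1% of genes under 0.05. At YAB3 the deposited FDR was thus under 0.05 for both a local gain and a local loss in the same peak, and neither was tested here.

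Both H3K4me3 peaks were weak. The median total signal over genes with an H3K4me3 peak was 24394 in the treat pool and 25542 in the control pool, and mean signal placed YAB2 at percentile 8.19 and YAB3 at 7.21 of these genes. Among the 656 genes whose peaks of both marks overlap, the median H3K4me3 signal was 9778 in the treat pool and 9740 in the control pool. Within those genes YAB2 stood at percentile 47.4 and YAB3 at 42.2, so their level was near the middle of genes that share this arrangement. Either filter that keeps strong or gene-wide peaks removed both: with only peaks at or above the first quartile of mean signal kept, or with a peak required over 50% of the gene body, 0 of 6 members had H3K4me3. The rule on the gene body also removes strong peaks, such as that of ARF4, which covered 31.2% of its body. H3K4me3 peaks on genes had a median length of 990 bp, and 5.31% of them covered at least 90% of the body.

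A second and very short H3K4me3 peak of 50 bp lay inside YAB3 (chromosome 4, 73850 to 73900). It is too short for the overlap rule, and it was picked after its values were seen. Its total signal was 6951 in the treat pool and 2048 in the control pool, 3.39-fold higher in the treat pool, and its FDR in the authors' deposited table was 0.0163. The control pool had a width of 0 there and the treat pool 50 bp. Among H3K4me3 peaks of at most 200 bp, 24.3% were called higher in the treat pool by the same rule.

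H3K4me3 peaks of neighbouring genes stood close to several domains. At FIL the nearest, on AT2G45180, ended 110 bp before the H3K27me3 domain and had 17665 in the treat pool and 20635 in the control pool. At YAB3 the peak on AT4G00170 shared 20 bp with the domain edge and had 22830 in the treat pool and 27429 in the control pool. At INO a peak of 1730 bp on CAF2 and AT1G23410 reached 600 bp into the domain, with 26264 in the treat pool and 31795 in the control pool. On the other side of INO, 380 bp from the domain, the peak on AT1G23440 was higher in the treat pool, with 21366 in the treat pool and 18391 in the control pool. No H3K4me3 peak lay within 2000 bp of the YAB5 domain. None of these peaks on neighbouring genes was called.

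Short H3K27me3 peaks without a gene stood beside the domains of INO and YAB2, and they were picked after their values were seen. Next to INO, 160 bp from its domain, a peak of 110 bp had a total signal of 8557 in the treat pool and 1476 in the control pool, 5.80-fold higher in the treat pool. The authors' deposited table gave an FDR of 0.0527, so it was not called. Next to YAB2, 410 bp from its domain, a peak of 230 bp had 8862 in the treat pool and 4182 in the control pool, 2.12-fold higher in the treat pool, and the authors' deposited table gave an FDR of 0.214. Both ratios have the opposite sign to the long domain beside them, and the control pool had a width of 0 at both. Of all H3K27me3 peaks of at most 200 bp, a class that holds the INO flank but not the longer YAB2 one, 14.5% were called higher in the treat pool. Longer flanking peaks gave smaller differences, with 13729 in the treat pool and 12222 in the control pool over 1020 bp beside YAB3, and 12090 in the treat pool and 14219 in the control pool over 1660 bp beside YAB5.

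The genes whose peaks were most like those of each member were sought by the distance between log2 total signals in both pools and log2 peak length, among genes with a symbol and with the same marks present. For FIL these were TBL15 and ZFP10, which share 1 peak of 9260 bp with 56811 in the treat pool and 70820 in the control pool, at a distance of 0.024 over 3 values. HDG3 and PUCHI were nearest to CRC, at 0.078 and 0.082. WRKY72 and ALD1 were nearest to INO, at 0.082 and 0.10, and ESR1 and UMAMIT29 to YAB5, at 0.056 and 0.11. Over 6 values, with both marks, IDD14 and LSH1 were nearest to YAB3, at 0.51 and 0.59, and BETA-VPE and CYP71A22 to YAB2, at 0.58 for both. These last distances are wider, and they were found among 446 candidates against 2039 for genes with H3K27me3 alone.

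The partners of the YABBY genes in organ polarity differed in which mark they carried. Of 13 polarity genes, 6 had an H3K27me3 peak and 10 an H3K4me3 peak, with 3 carrying both. All 4 KANADI genes, whose products specify abaxial identity alongside the YABBY proteins, had H3K27me3 over at least 90.7% of the gene body, as did AS2, which acts on the adaxial side. Of the 5 class III HD-ZIP genes of the adaxial side, PHB, PHV, REV and CNA had H3K4me3 and no H3K27me3 peak, and ATHB8 had only H3K27me3, over 27.3% of its body. KAN1, KAN2 and KAN3 shared with YAB2 and YAB3 the presence of both marks.

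None of the polarity genes was called in either mark, and the 6 with an H3K27me3 peak were all lower in the treat pool, with a median log2 ratio of -0.31 and a range from -0.46 to -0.13. AS2 had an H3K27me3 total signal of 55069 in the treat pool and 66878 in the control pool, and KAN1 had 51961 in the treat pool and 58935 in the control pool. In H3K4me3 the median was -0.012, with 5 genes lower and 5 higher, and ARF4, an auxin response factor of the abaxial side, had 30656 in the treat pool and 33785 in the control pool. PHV had 27939 in the treat pool and 31236 in the control pool. ETT, the related auxin response factor ARF3, was named after its values were seen. Its H3K4me3 signal was 28769 in the treat pool and 20462 in the control pool, a log2 ratio of 0.49 that is under 1.5-fold, and the authors' deposited table gave it an FDR of 0.038. By height the ETT peak was 1.67-fold higher in the treat pool and was called, and the authors' deposited table gave its height an FDR of 0.0125. An H3K27me3 peak of 1260 bp that shares 28 bp with ETT (chromosome 2, 14328950 to 14330210) had 108 in the treat pool and 13433 in the control pool, and the authors' deposited table gave an FDR of 0.00318. It is called only where 1 bp of overlap or a flank of 500 bp is enough to link it.

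**Figure D4:**
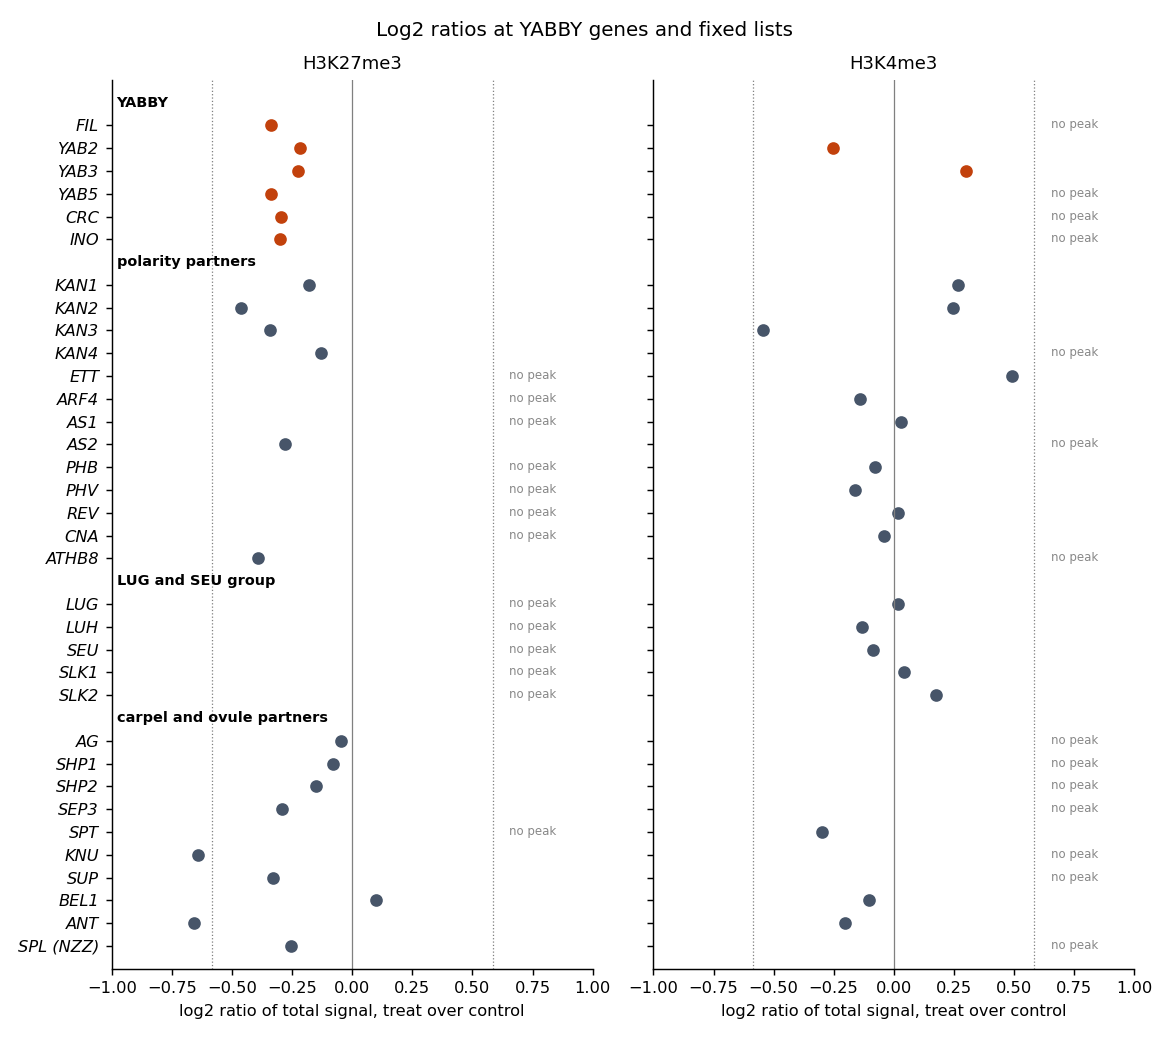
Log2 ratios of total signal, treat over control, at the YABBY genes (orange) and the genes of 3 fixed lists (grey), for H3K27me3 (left) and H3K4me3 (right), with dotted lines at 1.5-fold. Genes without a peak under the overlap rule are marked as such. The YABBY genes lie between -0.34 and -0.22 in H3K27me3, and the LUG and SEU group has H3K4me3 peaks only.

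The corepressors and adaptors that bind YABBY proteins, LUG, LUH, SEU, SLK1 and SLK2, had an H3K4me3 peak at 5 of 5 genes and an H3K27me3 peak at 0. SEU had an H3K4me3 signal of 33418 in the treat pool and 35508 in the control pool, and LUG had 28422 in the treat pool and 28103 in the control pool. None was called, and the median log2 ratio was 0.016.

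Of 10 genes that act with CRC and INO in carpels and ovules, 9 had an H3K27me3 peak and 3 an H3K4me3 peak. In H3K27me3, 8 were lower in the treat pool and 1, BEL1, was higher, the median log2 ratio was -0.25, and none was called. SEP3, a floral organ identity gene, had 68953 in the treat pool and 84426 in the control pool, and SPL (NZZ), needed for sporocyte formation, had 66877 in the treat pool and 79771 in the control pool. The 3 genes with H3K4me3 were SPT, BEL1 and ANT, all with a lower signal in the treat pool and none called. KNU, a repressor of the stem cell gene WUS in flowers, was nearest to a call and was named after its values were seen. Its H3K27me3 signal was 41065 in the treat pool and 64050 in the control pool, 1.56-fold lower in the treat pool, and the authors' deposited table gave an FDR of 0.0518.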

How the data were processed

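H3K27me3, H3K4me3 and H3 were immunoprecipitated from 3 samples of each genotype, and the tables used here compare pools of 3. Reads were aligned with Bowtie to TAIR10, per the submitters' processing notes; the peak caller, the normalization and the role of the H3 libraries are not given in the sources used here. Total signal, height and width are deposited as scores without a stated unit. The log2 ratios of total signal and of height were recomputed from both pools, with a value of 0 set to 1. The recomputed ratios matched the deposited ones except for H3K27me3 height, where the largest difference at any peak was 0.27. The FDR values are those of the authors' deposited table, and how they were computed is not given. The depth of the libraries is unknown, so no interval could be given.

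Peaks were linked with Python 3.11.15, pandas 2.3.3 and numpy 2.4.6 to nuclear protein-coding genes of a RefSeq table (TAIR10.1, used for names and gene bodies, none of its coordinates printed), by the peak covering most of the gene with at least 150 bp. Shifting the genes by 2000 bp lowered the share with an H3K4me3 peak to 45.7%, against 58.4% unshifted. For H3K27me3 the shift gave 26.7%, against 24.7% unshifted, so the check that both builds match rests on H3K4me3 alone. A call needed a deposited FDR under 0.05 and at least 1.5-fold in total signal. The linking and the call were tested on simulated data. Figures were drawn with matplotlib 3.10.9.

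The members, gene lists and alternatives were chosen with earlier results of these data known. Named genes are all 6 members, genes with at least 150 bp under a member's peak, the 2 nearest genes in log2 signal and length, and, per list and mark, any called gene or otherwise the 2 with the highest mean signal. Alternatives were other limits on FDR, fold, overlap, length and signal, peak height, and 2 centrings. Neighbouring genes and peaks were looked up within 2000 bp of each domain and named outside that rule.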

Additional observations from a re-analysis of the deposited data

How the results depend on the processing

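No paired analysis was possible because the tables hold 1 value per pool and none per replicate, and for the same reason no replicate could be left out. Of the members' log2 ratios under the alternatives, 67 kept their direction and side of the call, and 1 reversed, YAB2 in H3K27me3 at 0.0053 by peak height. Most of these comparisons could show no change. The filters and the other linking rules kept the same peak or none, so only peak height and the 2 centrings altered a ratio. No member was called under any alternative run. Apart from peak height, the alternatives reused the FDR for total signal in the authors' deposited table, which was above the limit at every member. Its lowest values were 0.206 at FIL in H3K27me3 and 0.303 at YAB3 in H3K4me3. Those alternatives therefore could not produce a call at a member, and only peak height could have. The lowest height FDR in the authors' deposited table was 0.183, at CRC in H3K27me3. The number of members with an H3K4me3 peak was 0, in place of 2, both with only peaks at or above the first quartile of mean signal kept and with 50% of the gene body required, so these settings give no H3K4me3 ratio. The cause of the differences below was not tested.

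Centred on all peaks, the median H3K27me3 log2 ratio was -0.16 for the YABBY genes, -0.17 for the polarity list and -0.11 for the carpel and ovule list. Centred on nuclear peaks of at least 1000 bp, it was -0.10, -0.12 and -0.060 in the same order. By peak height the median over both YABBY genes with H3K4me3 was 0.13, against 0.022 by total signal. In the polarity list 1 gene, ETT, was called higher in H3K4me3 with no fold limit or by height, and 1, also ETT, lower in H3K27me3 with 1 bp of overlap or a flank of 500 bp. By height 2 carpel and ovule genes, KNU and SUP, were called lower in H3K27me3.

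Over the whole tables, the rule called 473 H3K27me3 peaks higher and 399 lower (79 and 200 genes), and 395 H3K4me3 peaks higher and 564 lower (190 and 377 genes). With FDR under 0.001 it called 13 H3K27me3 peaks higher and 0 lower (1 and 0 genes), and 18 H3K4me3 peaks higher and 1 lower (5 and 2 genes). By height there were 239 H3K27me3 peaks higher and 252 lower (38 and 197 genes), and 223 H3K4me3 peaks higher and 316 lower (111 and 221 genes). The signal filter gave 70 H3K27me3 peaks higher and 165 lower (25 and 141 genes), and 26 H3K4me3 peaks higher and 25 lower (14 and 23 genes). Peaks of at least 500 bp gave 63 H3K27me3 peaks higher and 194 lower (33 and 160 genes), and 104 H3K4me3 peaks higher and 264 lower (90 and 242 genes). With 50% of the body required, 17 genes were higher and 93 lower in H3K27me3, and 21 higher and 61 lower in H3K4me3. A limit of 2-fold left 129 genes higher and 220 lower in H3K4me3, and 1 bp of overlap gave 130 genes higher and 232 lower in H3K27me3. Library depth is unknown, so its limit on these calls cannot be given.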
